A study of Mus musculus with 10 samples.

Results

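Migratory dendritic cells carrying the chemokine receptor Ccr7 were taken from 1 droplet library of sorted myeloid and stromal cells of mouse axillary lymph nodes. A cell was a member when it held at least 2 Ccr7, 2 Fscn1 and 5 H2-Ab1 unique molecular identifiers (UMIs, the counted transcript molecules), no Cd3e, fewer than 2 Cd79a and fewer than 3 Col1a1 UMIs. The choice was made among cells with at least 1000 UMIs, at most 10% mitochondrial UMIs and a single assigned hashtag. These were 332 of 5268 cells of the library, and 224 came from naive mice, 54 from mice with 4T1 tumours and 54 from mice with 67NR tumours. They are called gate cells here. The same gate found 26 of 11413 cells in an axillary atlas library of naive myeloid, T and B cells, which carried no hashtags and was used as a naive check.

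The series asked how lymph nodes draining a breast tumour differ from naive nodes, and its title names TLR4, fibroblasts and monocytes. The mice were wild-type female BALB/C animals aged 8 weeks, and every group shared this background. 4T1 and 67NR are related mouse mammary tumour lines, of which 4T1 spreads to distant organs and 67NR does not, as textbook knowledge. Cells of either line were placed orthotopically in the 4th mammary pad and nodes were taken on day 18, at a tumour size of 500 mm3, while naive mice were untreated. At least 3 mice entered each condition, but no label ties a cell to a mouse, so each condition is 1 hashtag pool. A difference between pools therefore has no replicate check, and no p-value is given. Intervals are exact at 95% and express only the error of counting.

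Dendritic cells take up antigen in tissue or in the node, and those that leave a tissue switch on the receptor CCR7, which guides them along CCL21 and CCL19 gradients into the T-cell zone. The CCR7 state is shared by cells of different origin. It includes the actin bundler fascin (Fscn1), the calcium channel subunit Cacnb3, the chemokines CCL17 and CCL22, costimulatory molecules, and checkpoint ligands. In a naive node such cells carry self antigen from skin and mammary tissue, and in a draining node they can carry tumour antigen.

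The 5 gene libraries of the series held 56333 barcodes, of which 49156 passed the filters and had a condition. No gate cell barcode was shared between libraries. The summed UMIs of the gate cells were 5337462 in naive, 1583334 in 4T1, 1354293 in 67NR and 279414 in the atlas. The median gate cell had 23106, 27112, 25629 and 9518.5 UMIs in the same order, and 3975, 4385.5, 4146 and 2731.5 genes. Median mitochondrial shares were 1.74% in naive, 1.79% in 4T1 and 1.70% in 67NR. Hashtag separation was cleaner in naive cells, with a median ratio of the leading hashtag to the next of 136, against 41.8 in 4T1 and 64.7 in 67NR. Another 34 cells met the gate but had no single hashtag, with a median ratio of 1.42, and were left out.

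The gate genes themselves describe the choice and are no finding. Ccr7 (chr11:99144196-99155077, minus strand, build mm10) had 2 UMIs in the lowest naive cell, 51 in the median cell and 164 in the highest. In 4T1 the same values were 2, 58.5 and 161, in 67NR 5, 58 and 129, and in the atlas 3, 32 and 81. Fscn1 (chr5:142960343-142973185) had a median of 33 UMIs per cell in naive, 43.5 in 4T1, 30.5 in 67NR and 9.5 in the atlas. H2-Ab1, the beta chain of the MHC class II molecule I-A (chr17:34257689-34269419), had medians of 69, 82.5, 58.5 and 9.5. The ranges of the groups overlapped for all 3 genes.

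Cells just inside and just outside the thresholds differed by gene. The 8 cells at the Ccr7 minimum held Cacnb3 in 12.5% of cells and the 17 cells at the Fscn1 minimum in 11.8%, against 74.7% of all gate cells. The 15 cells at the H2-Ab1 minimum held Cacnb3 in 100% of cells. Outside the gate by Ccr7 alone were 24 cells, of which 25% held a Ccl22 UMI and whose median Lyz2 count, a myeloid lysozyme, was 273.5. Outside by Fscn1 alone were 260 cells, with Ccl22 in 36.5% and Cacnb3 in 5%. Outside by H2-Ab1 alone were 244 cells, with Ccl22 in 86.9% and Cacnb3 in 95.9%. Cd3e, Cd79a and Col1a1 each removed few cells on their own, namely 17, 7 and 7.

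The label was checked against genes that the gate did not use. Ccl22, a ligand of CCR4 that attracts regulatory and helper T cells, was at 1606 CPM in gate cells, where CPM are UMIs scaled to a common library total. It was at 7.13 CPM in 61 resident-type dendritic cells of the same library, which were chosen for H2-Ab1 and the dendritic growth factor receptor Flt3 with no Ccr7 or Fscn1. Cacnb3 was at 235 CPM in gate cells and 0 in resident-type cells, and Ccl17, the other CCR4 ligand, at 793 and 1.43 CPM. The non-classical MHC gene H2-M2 was at 1243 and 0 CPM, the amino acid oxidase Il4i1 at 721 and 29.3, the cytokine signalling brake Socs2 at 394 and 9.27, and the costimulatory receptor Cd40 at 889 and 78.5. Zbtb46, a transcription factor of conventional dendritic cells, had a UMI in 91.9% of gate cells. These levels describe cells chosen by related genes and are no test, since the gate and the markers are read from the same cells.

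Markers of other cell types were measured in the same cells. T-cell markers summed to 10.7 CPM in naive, 5.68 in 4T1 and 2.22 in 67NR, with Cd3e at 0 by the gate, and B-cell markers to 40.1, 51.2 and 36.9 CPM. The 8 fibroblast markers summed to 38.4, 39.2 and 97.5 CPM, the macrophage markers to 290, 354 and 132 CPM, and the monocyte markers to 413, 501 and 428 CPM. Neutrophil markers summed to 1251 CPM in naive, 504 in 4T1 and 395 in 67NR. In the naive sum 1 cell held 40.4% of the 1652 S100a8 UMIs, and 6 naive cells carried neutrophil markers above 0.5% of their UMIs. Lyz2, which monocytes, macrophages and neutrophils share, had 10446 UMIs in naive, 6780 in 4T1 and 4546 in 67NR, or 1957, 4282 and 3357 CPM. It was in 87.9%, 90.7% and 85.2% of cells at medians of 5, 3 and 2 UMIs, and its 4T1 over naive log2 ratio of 1.13 (1.09 to 1.17) was past 2-fold. Its median was 108 UMIs in the cells at the Ccr7 minimum and 57 in those at the Fscn1 minimum. The part of cells with these markers in the differences below was not tested.

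In the atlas, antibodies read out surface protein on the same droplets, and the gate did not use the antibody counts. It did use the RNA of H2-Ab1, a chain of an MHC class II molecule, so the MHC-II counts are no independent check. The median gate cell carried 909.5 MHC-II antibody counts, against 150.5 on 40 resident-type dendritic cells and 16 on the 11347 other cells. CD44, an adhesion receptor of activated cells, was at 174, 49.5 and 61 counts. CD11c, an integrin of dendritic cells, was lower on gate cells than on resident-type cells, at 21.5 against 160, and CD8 was at 7 against 103. CD103, the protein of Itgae, was at 2 counts on gate cells and 3 on all other cells. Total antibody counts also differed, with medians of 1252.5, 603 and 561. MHC-II made up a median of 74.2%, 25.8% and 3.85% of a cell's counts in this order, so it was itself most of the gate cell total. The CD44 share was 11.8%, 6.37% and 15.2%, so relative to the total CD44 was lower on gate cells than on all other cells.

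**Figure D1:**
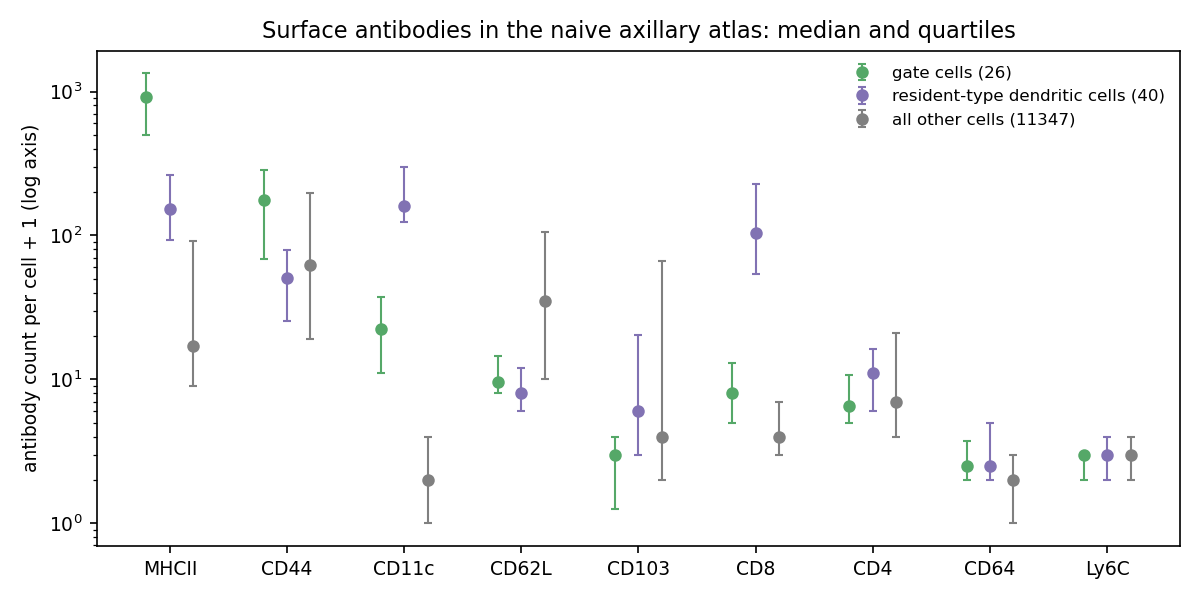
Surface antibody counts per cell plus 1 on a log axis in the naive axillary atlas, for 26 gate cells, 40 resident-type dendritic cells and 11347 other cells. Points are medians and bars reach the quartiles over cells. Counts are not scaled to a cell's total. Gate cells lie highest for MHC-II and CD44, at medians of 909.5 and 174 counts, and below resident-type cells for CD11c and CD8. As a share of a cell's antibody counts CD44 is at 11.8% on gate cells and 15.2% on other cells.

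Gate cells made up a larger share of the naive pool than of either tumour pool. They were 224 of 2126 naive cells (10.5%, 9.26 to 11.9), 54 of 1462 4T1 cells (3.69%, 2.79 to 4.79) and 54 of 1680 67NR cells (3.21%, 2.42 to 4.17). The naive interval lay above both others, and the 4T1 and 67NR intervals overlapped. The library holds sorted cells, so a share depends on how many other cells the sort passed in each pool, which was not tested. Taken over cells with at least 5 H2-Ab1 UMIs the shares were 33.7% of 664 naive, 7.62% of 709 4T1 and 12.1% of 448 67NR cells. The order of the 2 tumour pools thus changed with the denominator, and the naive share stayed the highest. In the atlas, which was sorted differently, the share was 26 of 11413 (0.228%, 0.149 to 0.334).

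A sizeable set of Ccr7 and Fscn1 cells fell below the H2-Ab1 minimum. There were 160 such cells in naive, 48 in 4T1 and 36 in 67NR, which is 41.7%, 47.1% and 40% of all cells with the Ccr7 and Fscn1 minimum in each pool. In the atlas they were 76 of 102 (74.5%). Against these low H2-Ab1 cells, gate cells held Ciita, the master activator of MHC class II genes, at a log2 ratio of 4.97 (3.73 to 6.61), the peptide loading gene H2-DMb1 at 6.22 and the invariant chain Cd74 at 3.30. The sets are split by H2-Ab1 itself, so the ratios of these MHC class II genes go with the split and are no test. The comparison was chosen after the values were seen. Genes of the cDC2 lineage, the class of conventional dendritic cells specialised in helper T-cell priming, were also higher in gate cells. The lectin Mgl2 differed by 6.41 and the lectin Cd209a by 9.02, with 902 UMIs against 1. The migratory genes differed little: Ccl22 by -0.01, Zbtb46 by 0.05, Ccr7 by -0.21 and Il12b by -0.43, while Ccl5 was at -1.16 and Cacnb3 at -0.90. Genes of the Aire and Trp63 cells described below were higher in gate cells too, with the serine protease Tmprss11d at 408 UMIs in gate cells against 0, Trp63 at 299 against 0, Prg3 at 871 against 1 and Aire at 129 against 1.

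The origin genes were sparse apart from Mgl2 and Epcam. Mgl2, a galactose lectin of dermal and other cDC2-type cells (chr11:70130329-70137550), had a UMI in 68 of 224 naive gate cells (30.4%, 24.4 to 36.8), 13 of 54 4T1 cells (24.1%, 13.5 to 37.6) and 9 of 54 67NR cells (16.7%, 7.92 to 29.3). The intervals overlapped. Thinning each cell to 4000 UMIs gave 25.1%, 16.7% and 7.55%, the same order. Fibroblasts, which should lack the gene, held it in 1.86% of cells, and resident-type dendritic cells in 36.1%. No atlas gate cell of 26 held an Mgl2 UMI, which, with 3 cells taken as the limit of a count of 0, allows a share of cells with a UMI of up to 11.5%.

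Xcr1, the receptor that marks cross-presenting cDC1 (chr9:123852315-123862029), had a UMI in 4.02% of naive and 1.85% of 67NR gate cells. No 4T1 cell of 54 held it, which by the same limit of 3 cells allows a share of cells with a UMI of up to 5.56%. Clec9a, another cDC1 receptor, was found in 3.13%, 1.85% and 1.85% of gate cells against 0.932% of fibroblasts. Itgae was found in 0.893%, 1.85% and 1.85% of gate cells, at or below its 4.04% in fibroblasts, and is read as background. Cd207, the Langerhans cell lectin langerin that some cDC1 also carry (chr6:83671215-83677857), was in 6.25% of naive, 1.85% of 4T1 and 7.41% of 67NR gate cells, and in 6 of 26 atlas cells (23.1%, 8.97 to 43.6). Epcam, the adhesion molecule of Langerhans and epithelial cells, was in 25.4%, 33.3% and 18.5%, against 0.311% of fibroblasts. For each of these genes the interval of each tumour pool overlapped that of naive.

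**Figure D2:**
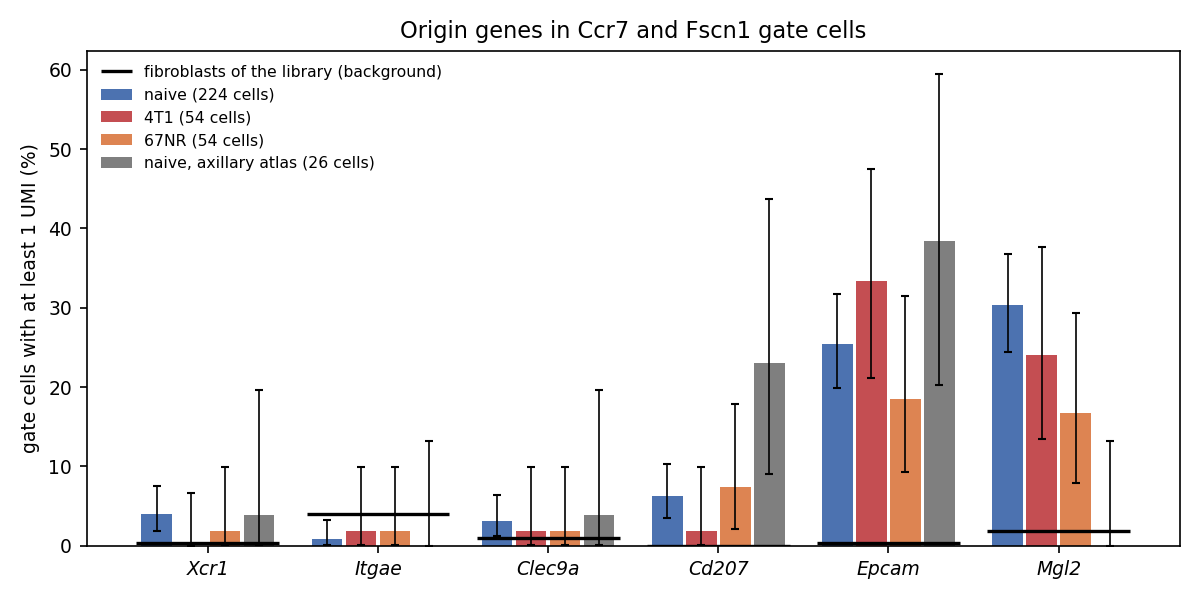
Share of gate cells with at least 1 UMI of 6 origin genes, in percent, in 3 hashtag pools and the naive axillary atlas, with exact 95% intervals as bars and the share in the library's fibroblasts as a black line. Mgl2 is in 30.4% of naive and 16.7% of 67NR cells with overlapping intervals and in no atlas cell, while Itgae lies at or below its fibroblast line.

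Origin genes overlapped within cells, so they did not split the gate into clean lineages. Of 90 cells with Mgl2 and 85 with Epcam over the 3 pools, 43 held both. Of 19 cells with Cd207, 11 also held Mgl2 and 14 also held Epcam, and 5 of 10 cells with Xcr1 held Mgl2. Cells with Mgl2 but neither Xcr1 nor Itgae numbered 62 in naive, 13 in 4T1 and 9 in 67NR. Cells with Xcr1 or Itgae without Mgl2 numbered 5, 1 and 2, those with both kinds 6, 0 and 0, and those with Cd207 alone 4, 1 and 3. Itgae was counted here though read as background above, and the 1 4T1 cell rests on it, since no 4T1 cell held Xcr1. The other 147 naive, 39 4T1 and 40 67NR cells held none of the 4 genes at this depth, and 20 of the naive ones were Aire and Trp63 cells described later.

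Mgl2-positive naive cells differed from the others in more than origin. The 68 cells were set against 135 naive gate cells without Mgl2, after leaving out the Aire and Trp63 cells described next. This split was chosen after the values were seen. Cd209a was at 403 CPM in Mgl2-positive cells and 9.81 in the others, and Cd226, an adhesion receptor, at 227 and 2.85. Irf4, the transcription factor of cDC2, was at 83.9 and 12.03 CPM. The log2 ratio was 2.84 for Epcam, 2.60 for the integrin Itgam, 2.60 for the stem cell factor receptor Kit and 1.77 for H2-Ab1. Lower in Mgl2-positive cells were Ccl5, at 915 against 5692 CPM, Cacnb3, at 48.0 against 308 CPM, the retinoic acid enzyme Aldh1a2 with a log2 ratio of -2.21 and Irf8, the transcription factor of cDC1, with -1.39. Fscn1 and Ccr7 were at -1.14 and -0.65, while Ccl17 was at 0.84 and Ccl22 at -0.41.

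A compact set within the gate carried Aire and Trp63. Aire, the autoimmune regulator that drives tissue antigen expression in thymic epithelium (chr10:78030022-78043610), and Trp63, a transcription factor of epithelial stem cells (chr16:25683763-25892102), had 86.0% and 99.7% of all gate cell UMIs in 32 cells. These cells were chosen after the values were seen, as those holding a UMI of at least 2 of Aire, Trp63 and Tnfrsf11b, so these shares describe the choice. They were 21 naive, 7 4T1 and 4 67NR cells. Outside the gate the rule found 3 of 4936 cells of the library and 5 of 11387 cells of the atlas. Their median depth was 19318 UMIs, against 24537 in the other gate cells.

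The set shared genes that its rule did not use. Syt1, a vesicle protein of neurons and neuroendocrine cells, had a UMI in 31 of the 32 cells and 8 of the other 300. The hyaluronan synthase Has2 was in 32 and 16 cells, the granule protein Prg3 in 28 and 9, Prg2 in 14 and 2, the desmosomal genes Dsc2 in 23 and 5 and Dsg1b in 21 and 4, and the addressin Madcam1 in 20 and 6. Kit was in 31 and 100 cells. Cacnb3 was in 31 of 32 and Zbtb46 in 32 of 32 cells. MHC class II genes differed little between the sets, with log2 ratios of -0.09 for H2-Ab1 and -0.07 for Cd74. Chemokines of the migratory state differed more: Ccl5 had 24 UMIs in the 32 cells and 33248 in the others, a log2 ratio of -6.95, Ccl22 was at -4.16 and Ccl17 at -1.96. Flt3 was in 5 and 255 cells, Mgl2 in 1 and 89, and the epithelial-type transcription factor Ehf in 0 and 203.

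The same rule found 6 of the 26 atlas gate cells, in a library from which the leading genes were not taken. Of the 25 genes that led the set in the myeloid library and were not in the rule, 18 had a UMI in the 6 atlas cells. In at least 2 of these cells were 15 genes. In none of the other 20 cells were 15 genes, but Il22ra2, Zfp536, Sorcs1, Dpp6, Sulf1 and S100a3 among them had no UMI in the 6 cells either. Of 11 leading genes measured at 5 expected UMIs, 11 were higher past 2-fold in the 6 cells. Over all genes so measured this was 634 of 3015 (21%). The 11 genes had between 0 and 9 UMIs in the other 20 cells, so they passed this filter only through the 6 cells. Leading genes scarce in the 6 cells were not measured, so the count of 11 is no test. Syt1 and Has2 were each in 5 of 6 and 1 of 20 cells. MHC class II RNA was higher in the 6 cells of the atlas, with log2 ratios of 1.54 (1.29 to 1.80) for H2-Ab1 and 1.46 (1.32 to 1.59) for Cd74. Surface antibodies differed as well: the median MHC-II count was 356 on the 6 cells and 1115 on the 20, CD44 was 12.5 and 218.5, and CD11c 2 and 32.5, with totals of 470.5 and 1495.5. CD44 and CD11c were lower by more than the totals. The cells are called by their leading genes here, and their relation to known Aire-expressing populations was not tested.

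**Figure D3:**
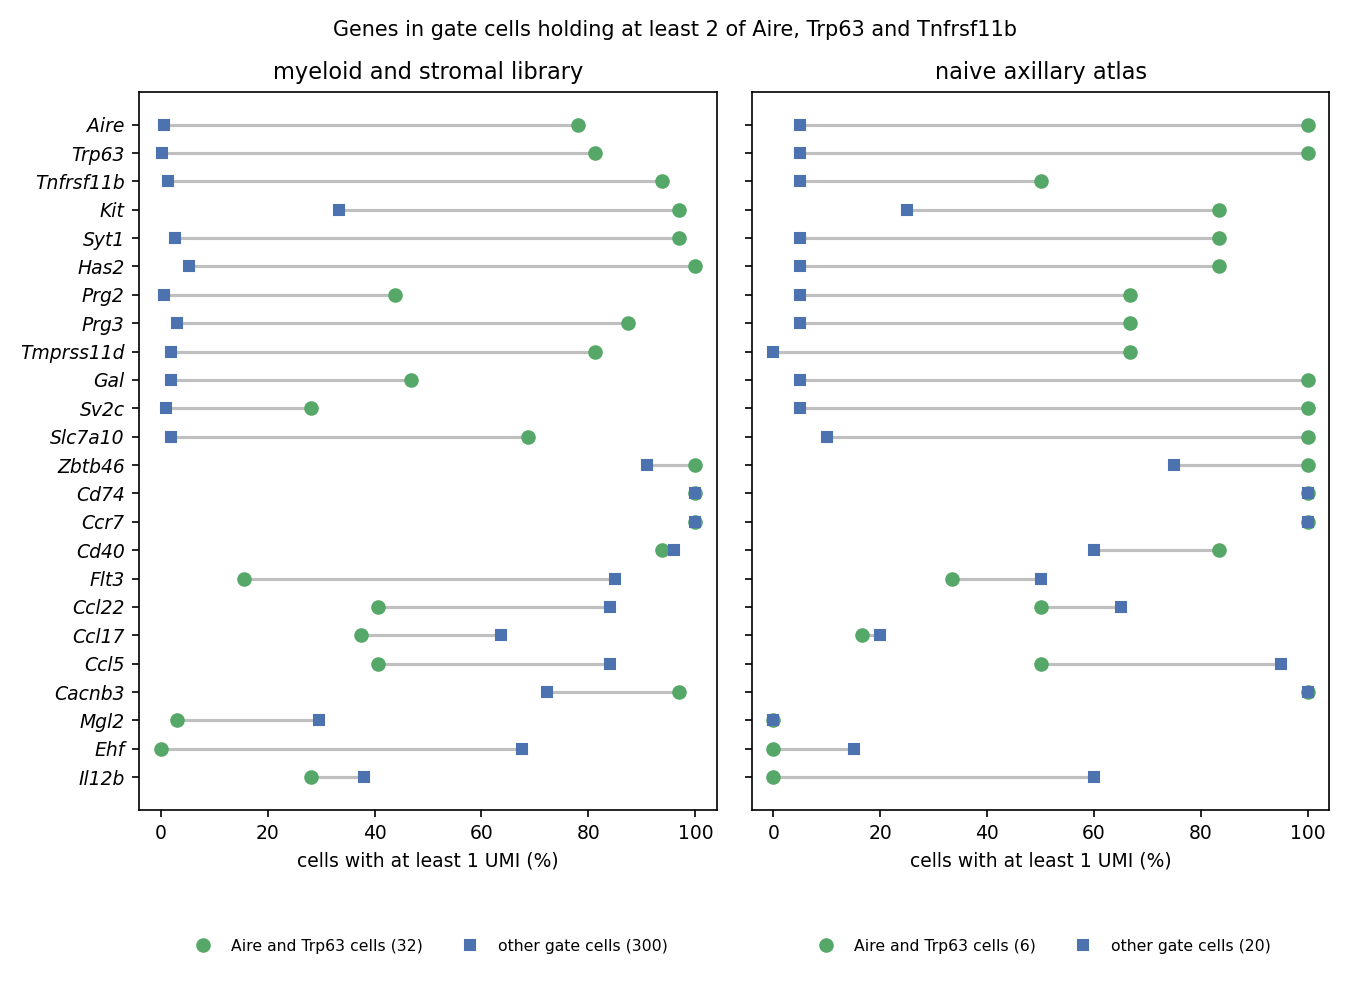
Share of cells with at least 1 UMI, in percent, for genes in the 32 gate cells that hold at least 2 of Aire, Trp63 and Tnfrsf11b (circles) and in the 300 others (squares), beside 6 and 20 cells of the naive atlas. Syt1 and Has2 lie far apart in both libraries, while Flt3 and Ehf lie higher in the other gate cells of the myeloid library.

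The hashtag pools were compared by the summed UMIs of the gate cells. A gene was measured when its mean CPM would give at least 20 UMIs in the smaller sum, and was called past 2-fold when the log2 ratio was at least 1 in size and its counting interval left out 0. In 4T1 over naive 337 of 6565 measured genes (5.13%) were called, 214 higher (3.26%) and 123 lower (1.87%). In 67NR over naive 329 of 6058 (5.43%) were called, 196 higher (3.24%) and 133 lower (2.2%). In 4T1 over 67NR 329 of 6198 (5.31%) were called, 189 higher (3.05%) and 140 lower (2.26%). The median ratio over all measured genes was 0.10, 0.05 and 0.03. Each count over a gene list below stands beside these shares. The comparisons of 4T1 and of 67NR with naive share the naive sum, so agreement between them is not independent.

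Single cells weighed on many calls. Of the 214 genes higher in 4T1 than naive, 102 had at least 25% of their 4T1 UMIs in 1 cell and 25 had at least 50%. Of the 123 lower genes, 14 had at least 25% of their naive UMIs in 1 cell. When each gene lost its highest cell in every pool, 294, 283 and 252 genes were called in the order above, and the share that was higher in 4T1 than naive changed from 63.5% to 37.8%. Scaling by the median of ratios moved that share to 51.7%. No direction is read from the overall balance, and genes below are given with the number of cells that carry them.

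The genes of the CCR7 programme were set against naive as a list. None of the 20 measured genes of this list in 4T1 over naive and none of the 19 in 67NR over naive passed 2-fold. Of all measured genes 5.13% and 5.43% did, so a count of none in lists this short is near that share and is not read as a result. Ccr7 was at 2358 CPM in naive, 2092 in 4T1 and 2334 in 67NR, and Fscn1 at 1851, 2240 and 1624. Both are in the list and were used by the gate. Cacnb3, which was not, was at 213 CPM (200 to 225), 251 (227 to 277) and 303 (274 to 333).

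Within the gate, more of the listed chemokines passed 2-fold between the tumour pools than between either tumour pool and naive. Ccl17 (chr8:94810453-94812036) was at 604 CPM (583 to 625) in naive, 1631 (1568 to 1695) in 4T1 and 560 (521 to 601) in 67NR. It was found in 138 of 224, 37 of 54 and 28 of 54 cells, and the median cell held 2, 9 and 1 UMIs. The 4T1 level stood above both others, with log2 ratios of 1.43 (1.36 to 1.51) over naive and 1.54 (1.43 to 1.66) over 67NR, while 67NR over naive was -0.11. In 67NR 1 cell held 39.2% of the UMIs. Without the H2-Ab1 minimum the ratio of 4T1 over 67NR was 1.00 and no longer passed 2-fold.

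Ccl22 (chr8:94745590-94751699) was at 1572 CPM in naive, 2254 in 4T1 and 978 in 67NR, in 180, 41 and 44 cells. Its ratio was 0.52 in 4T1 over naive, -0.69 in 67NR over naive and 1.21 (1.11 to 1.30) in 4T1 over 67NR. The last was 0.27 without the H2-Ab1 minimum. Ccl5, an attractant of T cells and monocytes (chr11:83525778-83530518), had the opposite order, at 3672 CPM in naive, 2910 in 4T1 and 6694 in 67NR, and a log2 ratio of 4T1 over 67NR of -1.20 (-1.25 to -1.15). It was -0.98 when the highest cell was left out, -0.55 without the H2-Ab1 minimum and -0.35 under a stricter gate of 4 Ccr7, 4 Fscn1 and 10 H2-Ab1 UMIs. In the low H2-Ab1 cells, Ccl17 was at 439 CPM in naive, 925 in 4T1 and 883 in 67NR and Ccl22 at 1176, 1822 and 3000. Both tumour pools stood above naive for both genes there, while within the gate 67NR stood above naive for neither.

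The interferon-inducible chemokine Cxcl10 (chr5:92346638-92348889, minus strand), a ligand of CXCR3 on effector T cells, had 431 UMIs in 56 naive cells, 629 in 12 4T1 cells and 18 in 7 67NR cells. These are 80.8, 397 and 13.3 CPM, and in 4T1 1 cell held 49.6%. The ratio was 2.30 (2.12 to 2.48) in 4T1 over naive and -2.60 (-3.37 to -1.93) in 67NR over naive. The former was 1.55 without the highest cell and the latter -0.59 without the H2-Ab1 minimum. Fibroblasts of the library carried Cxcl10 in 42.9% of cells, and whether free RNA adds to these counts was not tested. Ccl24, an eosinophil attractant, had 337, 342 and 1 UMIs in 31, 9 and 1 cells. The ratio of 67NR over naive was -6.42 (-11.73 to -3.93) and turned to 0.43 without the H2-Ab1 minimum.

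Over the chemokine list, 3 of 14 measured genes were higher and 2 lower in 4T1 than naive, against 3.26% and 1.87% of all measured genes. The lower genes were Ccl19, a CCR7 ligand, with 110 naive and 16 4T1 UMIs, and Ccl3, a ligand of CCR1, with 175 and 9 UMIs. In 67NR over naive none of 15 was higher and 3 were lower, namely Ccl9, Cxcl10 and Ccl24, against 3.24% and 2.2%. Ccl9 was at 243 CPM in naive, 183 in 4T1 and 117 in 67NR. Without the H2-Ab1 minimum Ccl19 was at -0.80, Ccl3 at -1.60 and Ccl9 at -0.82, so that of these 3 Ccl3 stayed past 2-fold. Between 4T1 and 67NR, 4 of 13 were higher (Ccl17, Ccl22, Cxcl10, Ccl24) and 2 lower (Ccl5, Ccl2), against 3.05% and 2.26%. The Ccl24 ratio was 8.19. With the H2-Ab1 minimum dropped, Ccl17, Ccl22 and Ccl24 were at 1.00, 0.27 and 0.97 and Ccl5 at -0.55. These were no longer past 2-fold, while Cxcl10 was at 2.77.

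Promoters are shown for Ccl17 and Cxcl10 among the chemokines past 2-fold in 4T1 over naive. Those of Ccl24, Ccl19 and Ccl3, which also passed, were not examined singly. Marked are sites of pathways known to drive the genes shown: STAT6 downstream of interleukin-4 for Ccl17, and interferon and NF-kB signalling for Cxcl10. The 250 bases before the RefSeq start (GRCm38.p6) are given, 5′ to 3′ on the gene's strand, with motif matches in capitals.
Ccl17, chr8:94810203-94810452, plus strand: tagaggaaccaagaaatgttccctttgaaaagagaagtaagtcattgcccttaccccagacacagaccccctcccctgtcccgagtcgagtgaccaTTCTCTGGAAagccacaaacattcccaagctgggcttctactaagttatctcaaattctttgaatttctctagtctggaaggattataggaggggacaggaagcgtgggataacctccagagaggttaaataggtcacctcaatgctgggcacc
Cxcl10, chr5:92348890-92349139, minus strand: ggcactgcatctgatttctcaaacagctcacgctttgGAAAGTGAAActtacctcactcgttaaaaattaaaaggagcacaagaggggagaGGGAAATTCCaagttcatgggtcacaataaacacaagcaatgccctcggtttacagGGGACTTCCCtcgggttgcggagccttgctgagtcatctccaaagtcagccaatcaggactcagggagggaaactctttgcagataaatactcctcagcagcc
The Ccl17 window holds 1 match to the STAT6 motif TTCNNNNGAA, from -154 to -145. The Cxcl10 window holds 1 match to the interferon response motif GAAANNGAAA, from -213 to -204, and 2 matches to the NF-kB motif, from -159 to -150 and from -103 to -94. All motifs were searched on both strands, and none of the matches shown overlap. Among 32851 promoter windows of all genes 5.85% held the STAT6, 2.98% the interferon and 3.90% the NF-kB motif. The windows of Ccl22, Cxcl9, Fscn1, Mgl2, Il12b, Aldh1a2, Tnfrsf4 and Il4i1 held none of the 3. A match describes letters in the window and is no evidence of binding.

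**Figure D4:**
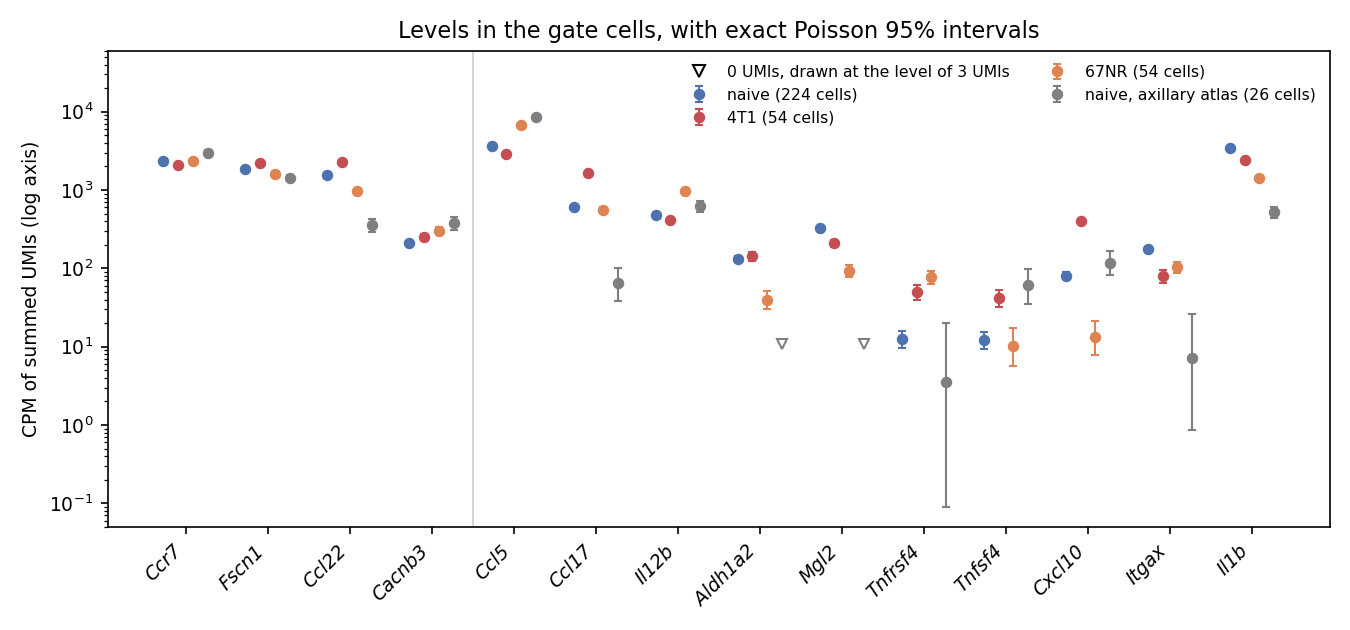
Levels of 14 genes in the gate cells, in CPM of summed UMIs on a log axis, by hashtag pool and in the naive axillary atlas, with exact Poisson 95% intervals and open triangles for genes with 0 UMIs. To the left of the line are 4 genes used to define or name the cells; to the right Ccl17 and Cxcl10 stand highest in 4T1, at 1631 and 397 CPM, and Mgl2 and Aldh1a2 have no UMI in the atlas.

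Costimulatory molecules of the B7 family were close across the pools. Cd80 was at 615 CPM in naive, 570 in 4T1 and 555 in 67NR, and Cd86 at 842, 870 and 792. Cd40, the receptor for helper T-cell CD40 ligand, was at 987, 834 and 566 CPM. Of 15 measured costimulation genes 3 were higher in 4T1 than naive and none lower, against 3.26% and 1.87% of all measured genes. In 67NR over naive 4 of 14 were higher and 1 lower, against 3.24% and 2.2%. Members of the tumour necrosis factor and SLAM families made up most of these.

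Tnfrsf4, the receptor OX40 better known on activated T cells (chr4:156013843-156016612), had 67 UMIs in 18 of 224 naive cells, 79 in 13 of 54 4T1 cells and 104 in 19 of 54 67NR cells. The log2 ratio was 1.99 (1.5 to 2.48) in 4T1 and 2.61 (2.16 to 3.08) in 67NR over naive, the latter 1.68 under a stricter gate. T-cell markers summed to 5.68 and 2.22 CPM in these tumour cells, below the 10.7 of naive. The gate had already left out any cell with a Cd3e UMI, so these sums cannot show where the Tnfrsf4 UMIs came from. The part of T-cell RNA in the Tnfrsf4 counts was not tested. Tnfsf4, its ligand OX40L, was at 12.2 CPM in naive, 41.7 in 4T1 and 10.3 in 67NR. In 4T1 1 of 8 positive cells held 45.5% of its UMIs, and the ratio of 4T1 over 67NR of 2.01 was 0.65 without the H2-Ab1 minimum.

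Tnfrsf9, the receptor 4-1BB, had a UMI in 72 of 224 naive cells (32.1%) and in 32 of 54 cells of either tumour pool (59.3%), with levels of 36.0, 65.1 and 90.1 CPM. It passed 2-fold in 67NR, at 1.32 (0.98 to 1.66), and not in 4T1, at 0.85 (0.50 to 1.21), where the difference between the tumour pools was -0.47 in 4T1 over 67NR. The self-ligand Slamf1 was at 27.0, 63.8 and 68.7 CPM, with ratios of 1.24 and 1.35, and the first was 0.74 without its highest cell. Tnfsf9, the ligand of 4-1BB, was lower in 67NR, at 80.0 CPM in naive, 60.0 in 4T1 and 27.3 in 67NR, and its 4T1 over 67NR ratio of 1.13 was 0.23 without the H2-Ab1 minimum. Cd24a, a small mucin-like adhesion molecule, was higher in 67NR at 1.09 and was 0.94 under a stricter gate and 0.84 without the H2-Ab1 minimum.

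Checkpoint and regulatory genes passed 2-fold over naive, in either direction, at a share near that of all measured genes. The list median was -0.05 in 4T1 and -0.38 in 67NR over naive, beside 0.10 and 0.05 over all measured genes. In 67NR 4 of 16 were above 0. Cd274, the ligand PD-L1, was at 392 CPM in naive, 405 in 4T1 and 378 in 67NR. Pdcd1lg2, the ligand PD-L2, was at 106, 145 and 126, Il4i1 at 757, 719 and 580, and Socs1 at 75.3, 109 and 96.0. Of 17 measured genes of the list 1 was lower in 4T1 than naive, the TGF-beta activating integrin Itgb8, against 1.87% of all measured genes. Itgb8 was at -1.05, turned to 0.36 under a stricter gate and was -0.76 without the H2-Ab1 minimum. In 67NR 1 of 16 was lower, against 2.2%, namely the retinaldehyde dehydrogenase Aldh1a2 (chr9:71215789-71296243), at 132 CPM in naive, 143 in 4T1 and 39.9 in 67NR. It was found in 81 of 224, 20 of 54 and 13 of 54 cells, with a ratio of -1.72 (-2.15 to -1.32) over naive that was -1.06 under the stricter gate. The ratio of 4T1 over 67NR was 1.85, and 0.96 without the H2-Ab1 minimum.

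Among cytokines, Il12b, the p40 subunit of interleukins 12 and 23 (chr11:44400063-44414033), was at 484 CPM in naive, 410 in 4T1 and 967 in 67NR, in 72, 23 and 28 cells. The 4T1 over 67NR ratio was -1.24 (-1.38 to -1.10), and -0.93 without the H2-Ab1 minimum, while 67NR over naive was 1.00 and just short of the call. Il1b was at 3458, 2394 and 1423 CPM, and 67NR over naive was -1.28 (-1.35 to -1.21). Neutrophil markers had the same order at 1251, 504 and 395 CPM, and their part in this difference was not tested. Il15, a survival factor for memory T and NK cells, was at 69.3, 82.1 and 106 CPM. Il6 was at 89.0, 48.0 and 105 CPM, and Csf1, the macrophage growth factor, at 24.4, 8.84 and 24.4 CPM. The Il6 ratio of 4T1 over 67NR of -1.13 was -0.20 without the H2-Ab1 minimum, and the Csf1 ratio of 4T1 over naive of -1.46 was -0.90 under the stricter gate. Il2ra, the interleukin-2 receptor alpha chain, was at 38.0, 97.9 and 75.3 CPM, with ratios of 1.36 (1.05 to 1.67) and 0.99 (0.63 to 1.34) over naive.

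The summed level of Mgl2 had the order of its share of cells. It was at 328 CPM in naive, 208 in 4T1 and 93.8 in 67NR, with a ratio of -0.65 (-0.83 to -0.48) in 4T1 and -1.81 (-2.08 to -1.55) in 67NR over naive. Cd209a had 736 UMIs in 56 naive cells, 91 in 6 4T1 cells and 75 in 7 67NR cells, and ratios of -1.26 (-1.59 to -0.95) and -1.32 (-1.68 to -0.97). Of 14 measured cDC2 genes 1 was lower in 4T1, against 1.87% of all measured genes. In 67NR 3 of 14 were lower, Mgl2, Cd209a and Cd209d, against 2.2%, and 1 higher, Klf4, against 3.24%. Klf4, a transcription factor that cDC2 subsets need, was at 47.4, 49.3 and 128 CPM, and its 67NR over naive ratio of 1.43 was 0.95 without the H2-Ab1 minimum. Cd209d was at -1.13 in 67NR, and -0.54 when each cell weighed the same. The lineage factors themselves differed less: Irf4 was at 38.0, 31.6 and 25.8 CPM and Irf8 at 314, 413 and 461. The integrin CD11c gene Itgax was at 177, 78.9 and 103 CPM, past 2-fold in 4T1 at -1.16 (-1.44 to -0.89). Among the Mgl2-positive cells, 68 of 224 in naive, 13 of 54 in 4T1 and 9 of 54 in 67NR, the median was 17.5, 11 and 15 UMIs.

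**Figure D5:**
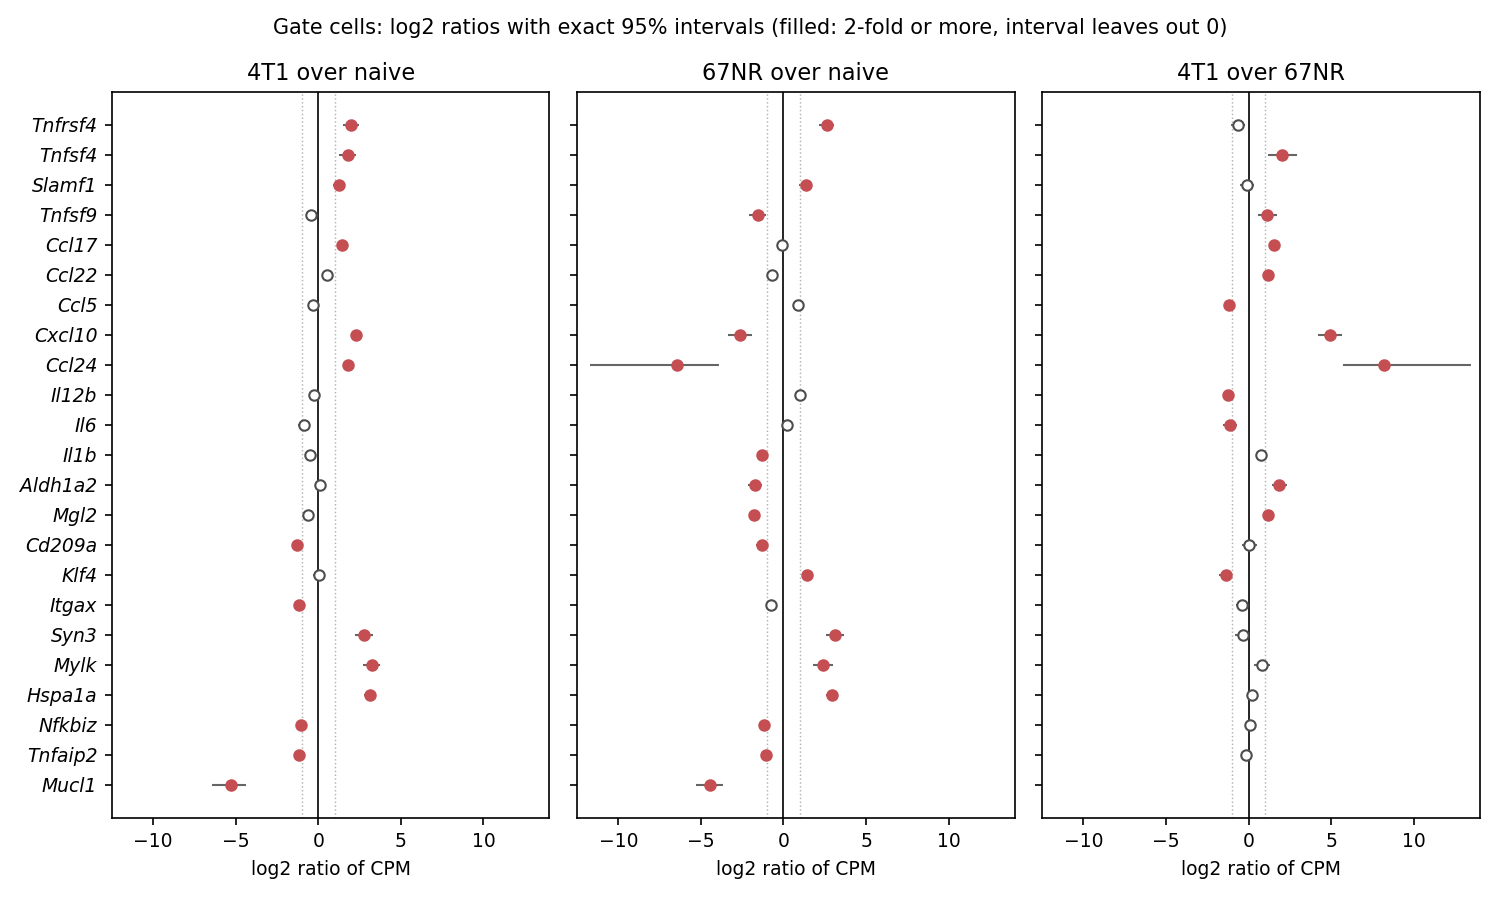
Log2 ratios of CPM between hashtag pools for 23 genes of the gate cells, with exact 95% counting intervals; filled points are at least 2-fold with an interval that leaves out 0, and a gene not measured in a comparison has no point. Tnfrsf4, Syn3, Mylk and Hspa1a are filled on the right over naive in both tumour pools, and over naive Ccl17 is filled for 4T1 alone, at 1.43.

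Antigen presentation genes were near naive levels. Of 17 measured MHC class II and loading genes 1 was higher in 4T1, the lysosomal protease Ctsd, against 3.26% of all measured genes. None of 18 MHC class I genes passed 2-fold, against 5.13% in 4T1 over naive and 5.43% in 67NR over naive. Ctsd was at 40.1 CPM in naive, 107 in 4T1 and 31.0 in 67NR, with a ratio of 1.41 in 4T1 that was 0.81 without the Aire and Trp63 cells. H2-Ab1, which the gate used, was at 4427, 3793 and 3290 CPM.

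Of 16 measured type I interferon genes 4 were higher in 4T1 than naive, against 3.26% of all measured genes. The list median was 0.47 beside 0.10 over all measured genes. The 4 higher genes were Ifit1, Rsad2, Irf7 and Oasl1, all induced by interferon. Ifit1 was found in 29 naive, 3 4T1 and 4 67NR cells, and 1 4T1 cell held 95.7% of its UMIs there, so that the ratio of 1.28 became -3.00 without it. Rsad2 went from 1.55 to -0.91 in the same way, and was 0.55 without the H2-Ab1 minimum. Irf7 was 1.05, 0.70 without its highest cell and 0.89 without the H2-Ab1 minimum. Oasl1 was spread over 28 naive, 15 4T1 and 15 67NR cells, at 14.6, 35.4 and 30.3 CPM, with ratios of 1.28 and 1.05, which were 0.58 and 0.61 without the H2-Ab1 minimum. In 67NR 1 of 13 genes of the list was higher and 2 lower, against 3.24% and 2.2% of all measured genes.

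Tlr4 itself was sparse in gate cells. Tlr4, the lipopolysaccharide receptor, had 81 UMIs in 19 of 224 naive cells (8.48%), 5 in 3 of 54 4T1 cells (5.56%) and 10 in 4 of 54 67NR cells (7.41%), too few to compare, while 59.3% of fibroblasts in the library held it. Its cofactors were measured: Ly96, or MD-2, was at 95.5, 61.9 and 71.6 CPM and Cd14 at 335, 407 and 315. Of 10 measured genes of the TLR4 list 1 was lower in 4T1, the inhibitor Irak3, against 1.87% of all measured genes. Irak3 was at -1.05, and -0.40 without the H2-Ab1 minimum.

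A few NF-kB targets were past 2-fold lower than naive. Of 25 measured genes 2 were lower in 4T1, against 1.87% of all measured genes, and 3 in 67NR, against 2.2%, and none were higher. The list medians were -0.34 and -0.20. The atypical inhibitor Nfkbiz was at 314 CPM (299 to 329) in naive, 151 (132 to 171) in 4T1 and 140 (120 to 161) in 67NR. It was found in 92.0%, 88.9% and 77.8% of cells, with ratios of -1.06 (-1.26 to -0.86) and -1.17 (-1.39 to -0.95). Tnfaip2, induced by tumour necrosis factor, was at 632, 278 and 305 CPM, with ratios of -1.18 (-1.33 to -1.04) and -1.05 (-1.20 to -0.90). When each cell weighed the same the Nfkbiz ratios were -0.89 and -0.93, and that of Tnfaip2 in 67NR was -0.99, so these stayed near 2-fold but were not past it. No naive cell held more than 3.82% of the Nfkbiz or 2.96% of the Tnfaip2 UMIs of its pool. The inducible metabolic enzyme Acod1 was at -1.73 and -3.82 and the histamine enzyme Hdc at -1.38 and -3.09, where Hdc in 4T1 was -0.38 without the gate cells rich in another lineage. Without the H2-Ab1 minimum Acod1 was at -1.06 and -1.80 and Hdc at -0.49 and -2.11.

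Of 15 measured heat shock and chaperone genes 4 were higher in 4T1 than naive (Hspa1a, Hspa1b, Hsph1, Hspb1), against 3.26% of all measured genes, and 2 of 14 in 67NR, against 3.24%. The inducible HSP70 gene Hspa1a was at 18.7, 164 and 142 CPM, with ratios of 3.13 (2.79 to 3.47) and 2.93 (2.57 to 3.29), which were 2.12 and 2.19 without the H2-Ab1 minimum, and it sat in 35, 9 and 12 cells, of which 1 held 34.0% of the 4T1 and 40.9% of the 67NR UMIs. Fibroblasts held it in 52.2% of cells. With 1 pool a condition, tumour and the handling of the pool cannot be told apart.

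None of 23 nuclear respiratory chain genes passed 2-fold, against 5.13% of all measured genes in 4T1 over naive and 5.43% in 67NR over naive. Of the 23, 22 were above 0 in 4T1 over naive, with a median of 0.32 beside 0.10 over all measured genes. In 67NR 14 of 23 were above 0, with a median of 0.02. Of 18 glycolysis and hypoxia genes 1 was lower in 4T1, the lactate exporter Slc16a3, against 1.87% of all measured genes. Of 16 lipid genes 3 were higher in 4T1, Abca1, Nr1h3 and Apoe, against 3.26%. Apoe, the apolipoprotein of macrophages, was at 73.3, 611 and 123 CPM, and 1 4T1 cell held 44.6% of its UMIs. Its ratio of 3.06 became 2.27 without the Aire and Trp63 cells and 3.75 without the gate cells rich in another lineage, and macrophage markers were at 290, 354 and 132 CPM in the same pools.

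Syn3 and Mylk had the same shape as Tnfrsf4, low in naive gate cells and present in more of the tumour-pool cells. Syn3, a synapsin of synaptic vesicles (chr10:86055125-86498896, minus strand), had 42 UMIs in 23 naive cells, 84 in 16 4T1 cells and 92 in 21 67NR cells. The ratios were 2.75 (2.20 to 3.32) and 3.11 (2.57 to 3.67). Timp3, a protease inhibitor of stroma, lies within Syn3 on the opposite strand in GENCODE, and the use of strand in counting is not given in the sources used here. Fibroblasts held Timp3 in 83.0%, 83.7% and 80.9% of cells, while the gate cells outside the Aire and Trp63 set held 8, 5 and 6 Timp3 UMIs in all. Syn3 itself was in 9.09%, 21.4% and 19.1% of fibroblasts.

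Mylk, myosin light chain kinase (chr16:34745210-35002420), had 43 UMIs in 9 naive cells, 119 in 14 4T1 cells and 58 in 13 67NR cells, with ratios of 3.22 (2.71 to 3.76) and 2.41 (1.82 to 3.01). In naive, 41 of the 43 UMIs were in Aire and Trp63 cells. Outside that set Mylk was found in 2 of 203 naive cells (0.985%), 11 of 47 4T1 cells (23.4%) and 12 of 50 67NR cells (24%), and without the set the ratios were 7.37 and 6.75. Fibroblasts held Mylk in 23.9%, 16.3% and 32.4% of cells, at 28.0, 41.9 and 47.1 CPM. Cells outside the gate that were neither fibroblasts nor low H2-Ab1 cells held it in 6.23%, 5.23% and 6.88%.

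The low H2-Ab1 cells, which the gate leaves out, gave another reading of these genes in the same pools. Syn3 was in 8 of 160 naive cells (5%), 21 of 48 4T1 cells (43.8%) and 14 of 36 67NR cells (38.9%). Tnfrsf4 was in 21 (13.1%), 18 (37.5%) and 14 (38.9%) of them, and Mylk in 9, 10 and 5. In the cells of the library that were neither Ccr7 and Fscn1 cells nor fibroblasts, Syn3 was in 1.39%, 1.98% and 1.72% and Tnfrsf4 in 1.09%, 1.35% and 0.963%. The tumour pools thus stood above naive in both sets of Ccr7 and Fscn1 cells. For Syn3 they did so in fibroblasts too, at 9.09%, 21.4% and 19.1% of cells. All these sets of cells come from the same hashtag pools and are not replicates. In the atlas, a naive sample, Tnfrsf4 and Mylk each had 1 UMI in 26 cells, and Syn3 had 16 in 4 cells, of which 1 held 56.2%.

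Among genes lower in both tumour pools, Mucl1, a mucin-like gene of mammary and other glands, had 1197 UMIs in 29 naive cells, 9 in 4 4T1 cells and 14 in 1 67NR cell. The ratios were -5.30 (-6.43 to -4.37) and -4.44 (-5.31 to -3.69), and the former was -2.94 without the H2-Ab1 minimum. It had no UMI in the atlas gate cells, which are naive as well. Cd226, high in Mgl2-positive naive cells, had 407, 17 and 47 UMIs in 54, 7 and 5 cells, with ratios of -2.83 and -1.14, the latter -3.12 without its highest cell.

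The naive check in the atlas differed from the naive pool in many genes. Of 2176 genes measured in atlas over library naive gate cells, 394 (18.1%) were past 2-fold, 234 higher (10.8%) and 160 lower (7.35%), with a median of 0.18. Mgl2 was at least 30.5-fold lower in the atlas, set against a floor of 3 UMIs over the group, Cd209a at least 12.8-fold and Aldh1a2 at least 12.3-fold lower. Ccl22 was at 354 CPM and Ccl17 at 64.4 CPM in the atlas, and Itgax at 7.16, while Ccl5 was at 8457 and Cacnb3 at 376. Nfkbiz and Tnfaip2 were at 114.5 and 161 CPM, below naive of the library and below both tumour pools. Il1b was at 522.5 CPM. The atlas was sorted for other cells, had a lower median depth, and its T-cell and NK-cell markers were at 165 and 208 CPM in gate cells, against 10.7 and 30.5 in naive of the library. The part of sort and depth in these differences was not tested.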

How the data were processed

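Axillary node cells were measured with the 10x 3′ v3.1 kit, per the labels' protocols. The authors deposited UMI counts per gene, hashtag and antibody for each barcode, and the submitters' processing notes name Cell Ranger 7.0 and the build mm10. The annotation, intron setting and use of strand were not given in the sources used here. Conditions were taken from hashtag names, with a count of at least 10 and 3 times the next, which leaves out droplets of mixed hashtags. No doublet caller was run. Cells are not replicates, so UMIs were summed per pool, scaled to CPM and compared by log2 ratios with exact conditional binomial 95% intervals; levels have exact Poisson and shares exact Clopper-Pearson intervals, all for counting error only. No test was made. The design named these sums and ratios, with no prior count. Scripts used Python 3.11.15, numpy 2.4.6, scipy 1.17.1, pandas 2.3.3 and matplotlib 3.10.9, and the ratio step was tested on simulated data. Coordinates are GENCODE M21, on the build of the files, and promoters RefSeq GRCm38.p6. The members, lists and tests were chosen with earlier results of these data known. Named genes are the gate and marker genes, the 12 highest and 12 lowest ratios of each comparison, the 25 genes highest in gate cells, a fixed set of chemokine, checkpoint and TLR4 genes, and 2 to 4 measured members of each list with the largest ratios; Timp3, Ccl2, Ccl19 and Cd24a were added after their values were seen. Alternatives changed the hashtag ratio, mitochondrial and depth limits, gate, filter, scaling and thinning. The stromal and T-cell libraries held 8 and 1 gate cells, the mediastinal atlas 0, and were not compared. A few genes are not reported here, and they were left out of the Aire and Trp63 rule and of the list counts.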

Additional observations from a re-analysis of the deposited data

Results flagged for a closer look

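Genes were listed for a closer look when the 4T1 and the 67NR sums moved in opposite directions from naive, each past 2-fold. These differences were not tested, each condition is 1 hashtag pool, and both ratios share the naive sum. The log2 ratio of Cxcl10 to naive was 2.30 for 4T1 and -2.60 for 67NR. Ccl24 was at 1.77 and -6.42. Retnla, a secreted resistin-like protein, was at -3.71 and 1.04, where 1 67NR cell held 61.1% of its 252 UMIs. Beyond the named genes, the complement gene C1qa was at 1.22 and -4.64, with 82.7% of its naive UMIs in 1 cell. The kinase Prkg1 was at -1.62 and 3.44, with 94.6% of its 67NR UMIs in 1 cell.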

How the results depend on the processing

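Of 89 named values past 2-fold, between 24 (cells thinned to 4000 UMIs) and 89 (at least 3000 UMIs per cell) were past it under the alternatives. Without the H2-Ab1 minimum 60 were, under the stricter gate 72 and without each gene's highest cell 73. These counts take either direction, and the values that changed direction are named below. Alternatives without the H2-Ab1 minimum, over H2-Ab1 cells, without the Aire and Trp63 cells, without the highest cell and for the atlas were chosen after seeing the data. Counts of genes past 2-fold in 4T1 over naive, 67NR over naive and 4T1 over 67NR, 337, 329 and 329 as reported, were 146, 141 and 103 with at least 50 expected UMIs, 70, 64 and 55 with thinning, and 1099, 1113 and 950 with no filter. For atlas over naive the 394 became 126, 123 and 2277 under these settings, 1022 without the H2-Ab1 minimum, 255 with the stricter gate and 248 without the Aire and Trp63 cells. Scaling by the median of ratios gave 171 higher and 160 lower genes in 4T1 over naive in place of 214 and 123. Without the H2-Ab1 minimum the cell shares were 18.1%, 6.98% and 5.36%, and the naive share with Mgl2 19.5%; over H2-Ab1 cells the shares were 33.7%, 7.62% and 12.1%; the stricter gate gave 7.86% in naive and 1.85% in 67NR. Values that changed direction were Ccl24 in 67NR over naive (0.43, no H2-Ab1 minimum); under the stricter gate Cd226 (1.09) and Retnla (0.77) in 4T1 over 67NR, Itgb8 in 4T1 over naive (0.36) and Retnla in 67NR over naive (-4.76); without the highest cell Ifit1 (-0.81) in 4T1 over 67NR, Ifit1 (-3.00) and Rsad2 (-0.91) in 4T1 over naive and Retnla (-0.0756) in 67NR over naive; with thinning Ifit1 in 4T1 over 67NR (-0.027) and over naive (-0.28). Apart from fewer cells or genes in each setting, the cause was not tested. Requiring the next hashtag to be under 10 counts left 6 cells and was not run. With 54 cells per tumour pool, a count of 0 allows up to 5.56% of cells with a UMI, at 3 cells as the limit. No paired analysis was possible because each condition is 1 pool and nothing ties cells to mice.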

Other observations

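Mki67, a nuclear protein of cycling cells, had 848 UMIs in 147 of 224 naive cells, 152 in 24 of 54 4T1 cells and 116 in 28 of 54 67NR cells, and was in 5 of 26 atlas cells. It was in 2.17% of fibroblasts and 19.7% of resident-type dendritic cells, at median depths of 19346 and 21727 UMIs, against 65.6%, 44.4% and 51.9% of the gate cells of the 3 pools. In 4T1 1 cell held 53 of the 152 Mki67 UMIs. Top2a, the topoisomerase of dividing cells, had 137 UMIs in 39 naive cells, 62 in 10 4T1 cells and 13 in 7 67NR cells. The highest cell of each pool held 42, 44 and 7 of these Top2a UMIs. Of 10 measured proliferation genes 1 was higher in 4T1 than naive, Birc5, against 3.26% of all measured genes. Of 8 in 67NR 2 were lower, Top2a and Stmn1, against 2.2%. Birc5 had no UMI in 67NR and 49 in naive, too few for the 20 expected UMIs of a measured gene. It was thus not among the measured genes of 67NR over naive. Set against a floor of 3 UMIs over the group, it was at least 4.14-fold lower in 67NR.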
